A study of Mus musculus with 2 samples.

Results

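The arterial-gated endothelial cells (ECs) described here are 397 of the 4940 ECs in the library of normal mammary gland ECs (NECs), or 8.04% (95% interval 7.29% to 8.83%). They were selected on the unique molecular identifiers (UMIs) of 7 arterial genes, Gja5, Bmx, Egfl8, Sema3g, Gja4, Car7 and St8sia6: a cell was a member when at least 3 of these gate genes each had 1 or more UMIs. An EC was a barcode with at least 200 genes, under 10% mitochondrial UMIs, no UMI of Ptprc, Myh11, Epcam or Cspg4 and at least 1 UMI of Cdh5 or Pecam1. All of these genes were used to choose the cells, so their values are a description, and they were left out of every comparison below. The remaining 4543 ECs of the library served as the comparison.

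The series holds 1 droplet library of NECs and 1 of tumor ECs (TECs), 9751 barcodes in all. Both were sorted by flow cytometry as CD45-/CD31+ cells, the NECs from pooled normal mammary glands of C57BL/6 mice 6-8 weeks old, the TECs from pooled E0771 tumors, a mouse mammary carcinoma line implanted in the mammary gland, for which the labels give no strain or age and the study's methods give female mice on a C57BL/6 background. Other labels of the NEC library name E0771 and TECs, while its title and the deposited design give normal glands, which is how it was read. The glands were pooled and neither library has a replicate, so no p-value was computed: 95% intervals cover counting error only, and no difference between mice can be seen. The NEC library held 40914092 UMIs in 9047 barcodes and the TEC library 18980858 UMIs in 704 barcodes, with 3 barcodes present in both.

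Arterial endothelium lines the vessels that carry blood under high flow and pressure. Its identity is set up by VEGF and Notch signaling together with SoxF factors, and it deposits an elastic matrix toward the smooth muscle around it and couples its cells through connexins, of which Gja4 and Gja5 encode family members. Of the other gate genes, Bmx encodes a Tec family kinase, Sema3g a secreted semaphorin, Car7 a carbonic anhydrase, St8sia6 a sialyltransferase and Egfl8 a protein with EGF-like domains. Levels below are summed UMIs of a group divided by all UMIs of that group and scaled to counts per 1000000 (CPM), and differences are log2 ratios of these levels, arterial-gated over other ECs.

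The arterial-gated ECs held 1641048 UMIs, with a median of 3571 per cell against 2933 in the other ECs, and a median of 4.49% mitochondrial UMIs against 3.57%. Because a deeper cell has more chances to pass a gate of detected genes, each cell was also thinned at random to 1900 UMIs, which left out 1109 ECs that were too shallow, 40 of them arterial-gated. At this equal depth 215 of 3831 ECs still had 3 gate genes, or 5.61% (4.90% to 6.39%). Shares of cells with a UMI are given below after thinning, for the 357 arterial-gated ECs that were deep enough, the other ECs, and cells of the same library with Epcam UMIs and without Cdh5 or Pecam1 UMIs (698 cells, median depth 10806 UMIs before thinning). The last group stands for cells that should lack vascular genes.

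Among the members, Sema3g was detected in 90.7% of cells and Gja4 in 76.3%, whereas Gja5 was detected in 208 cells (52.4%), Car7 in 44.3%, St8sia6 in 44.3%, Egfl8 in 41.1% and Bmx in 161 cells (40.6%). The gate was thus carried mostly by Sema3g and Gja4, with Gja5 and Bmx each missing from many members. Exactly 3 gate genes were found in 178 members, 4 in 120, 5 in 70, 6 in 20 and all 7 in 9 cells. The 178 cells just inside the limit held Sema3g at 523 CPM, Gja4 at 421 CPM and Gja5 at 145 CPM. The 304 cells just outside it, with 2 gate genes, held Sema3g at 322 CPM, Gja4 at 219 CPM and Gja5 at 42.2 CPM, at a median depth of 3030 UMIs against 3197 just inside.

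To set the label beside genes that the gate did not use, 32 arterial genes were summed, along with 21 venous and 21 capillary genes. These lists were chosen with earlier results of these data known, so they are no independent check of the label. The arterial list reached 20426 CPM in the arterial-gated ECs and 8384 CPM in the other ECs (log2 ratio 1.28, interval 1.27 to 1.30). The venous list was at 1833 against 4156 CPM (log2 ratio -1.18, interval -1.23 to -1.13) and the capillary list at 25165 against 35392 CPM (log2 ratio -0.49, interval -0.51 to -0.48). By these 3 lists the cells carry an arterial profile, with venous genes lower and capillary genes less so. Of 30 arterial genes at 10 CPM or more over all ECs, 22 were at least 2-fold higher in the arterial-gated ECs and 1 was at least 2-fold lower, with a median log2 ratio of 1.59. Across all 8258 genes tested, 286 (3.46%) were at least 2-fold higher and 449 (5.44%) at least 2-fold lower, with a median log2 ratio of -0.01.

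The plot of list levels against the number of gate genes shows where the profile sets in. The arterial list was at 7253 CPM in ECs with no gate gene, at 10097 CPM with 1 and at 14387 CPM with 2. It then stood between 19678 and 21250 CPM in cells with 3 to 7 gate genes. The cells just outside the limit therefore lay between the ECs with no gate gene and the members, and members with 3 gate genes were close to those with more. Fbln5 was at 47.4 CPM with no gate gene, 632 CPM with 2 and 1100 CPM with 3, and then at 1538, 1981, 1765 and 2601 CPM with 4, 5, 6 and 7. Mgp took another course: it peaked at 2791 CPM in cells with 3 gate genes and was at 422 CPM in the 9 cells with all 7.

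**Figure D1:**
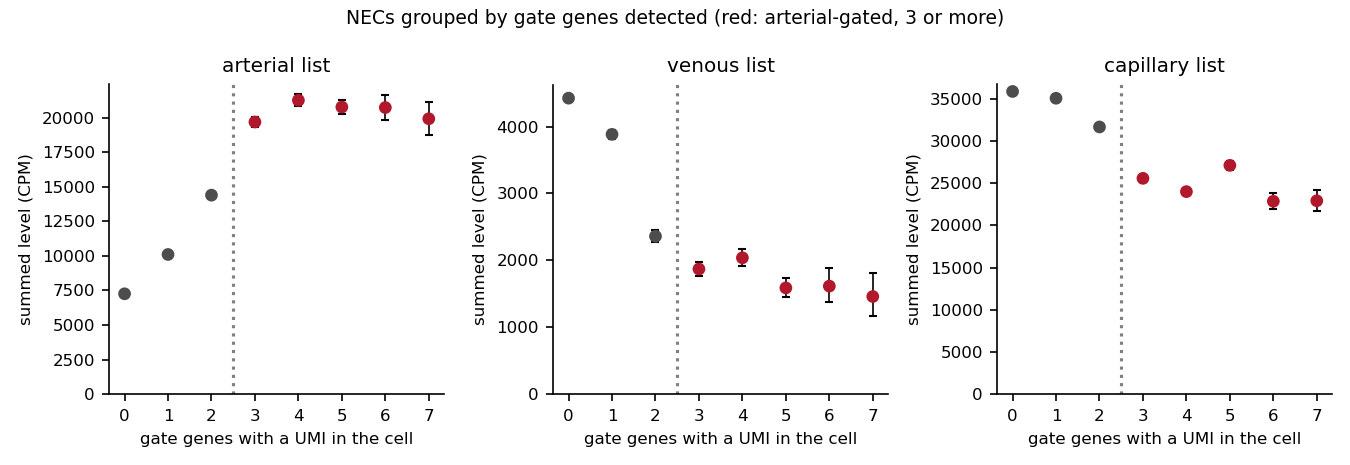
Summed level of the arterial, venous and capillary lists (y axis, CPM) in NECs grouped by the number of gate genes with a UMI (x axis); bars are 95% Poisson intervals, red points are the arterial-gated ECs and the dotted line is the limit of 3. The arterial list was at 7253 CPM with 0 gate genes, at 19678 CPM with 3 and at most 21250 CPM beyond, and the venous list was at 4424 CPM with 0 and 1870 CPM with 3.

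Genes were ranked by ratio among those with at least 100 CPM in the higher group and at least 10 UMIs in each group. In the higher group, no cell could hold over 20% of the UMIs. The lower group had no such limit. For example, 1 cell held 39.3% of the Serpinf1 UMIs in the other ECs, and 1 cell 42.9% of the Selp UMIs in the members. The 25 highest were led by secreted and matrix proteins. Of these, Fbln5, a fibulin that organizes elastic fibers (chromosome 12, 101746565 to 101819055, minus strand, GRCm38), combined a high level with a wide difference: 1497 against 110.0 CPM (log2 ratio 3.77, interval 3.68 to 3.86). After thinning it was detected in 85.4% of the arterial-gated ECs, 11.9% of the other ECs and 0.587% of the Epcam cells. Fbln5 was thus found in most members and in a small share of the other ECs, without having been used to choose them. Mgp, matrix Gla protein, an inhibitor of vascular calcification, had the highest level of the 25, 2266 against 200.1 CPM (log2 ratio 3.50, interval 3.43 to 3.57), but was found in only 23.5% of the thinned members, and 1 cell held 7.96% of its UMIs. Stmn2, a regulator of microtubules, stood at 949 against 112 CPM (log2 ratio 3.09, interval 2.99 to 3.19) and was detected in 72.8% of the arterial-gated ECs, 11.9% of the other ECs and 0.147% of the Epcam cells. Its pattern resembled that of Fbln5, widespread in the members and almost absent from the Epcam cells.

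The largest ratios of the 25 belonged to genes that were low in the other ECs. Serpinf1, which encodes the secreted pigment epithelium-derived factor (chromosome 11, 75409769 to 75422701, minus strand), was at 135 against 3.89 CPM (log2 ratio 5.12, interval 4.71 to 5.55). Gkn3, a gastrokine (chromosome 6, 87383256 to 87388935, minus strand), was at 366 against 10.9 CPM (log2 ratio 5.07, interval 4.82 to 5.32). Both marked a minority of the members: after thinning, Serpinf1 was found in 18.2% of the arterial-gated ECs, 0.489% of the other ECs and 0.294% of the Epcam cells, and Gkn3 in 21.6%, 0.748% and 0.294% of the same groups. Nebl, an actin-binding nebulin family member, was at 155 against 10.6 CPM (log2 ratio 3.87, interval 3.58 to 4.16). Htra1, a secreted serine protease that cleaves matrix proteins, was at 225 against 15.8 CPM (log2 ratio 3.83, interval 3.59 to 4.07), and Col8a1, a short-chain collagen of the vessel wall, at 325 against 24.4 CPM (log2 ratio 3.74, interval 3.54 to 3.93). Fn1, which encodes fibronectin, was at 492 against 36.2 CPM (log2 ratio 3.77, interval 3.61 to 3.92) and was found in 51.3%, 4.52% and 0.734% of thinned arterial-gated ECs, other ECs and Epcam cells.

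The rest of the 25 had log2 ratios between 2.11 and 3.46. Among them were 3 secreted ligands: Vegfc, a ligand of the receptor Flt4, at 311 against 35.1 CPM, Edn1, the vasoconstrictor endothelin, at 329.7 against 61.4 CPM, and Tgfb2 at 133 against 24.4 CPM. Alpl (alkaline phosphatase), Col18a1 (a basement membrane collagen), Igfbp4 (a carrier of insulin-like growth factors), Sulf1 (an enzyme that trims heparan sulfate), Cytl1, Eps8l2, Avpi1, Palld (an actin-bundling protein), the calcium-binding S100a4, Rgs10 and the calcium pump Atp2a3 made up most of the others. Palld, Eps8l2, Avpi1 and Jag1 were also found in 8.96%, 6.61%, 13.2% and 5.29% of the thinned Epcam cells. Col8a1 and Mgp, named above, were found in 6.31% and 5.43% of them, with Col8a1 in 3.77% of the thinned other ECs. The detection of all these genes was thus not particular to vessels. Acta2, the smooth muscle actin, was kept out of the ranking because 1 cell held 31.5% of its UMIs in the members.

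**Figure D2:**
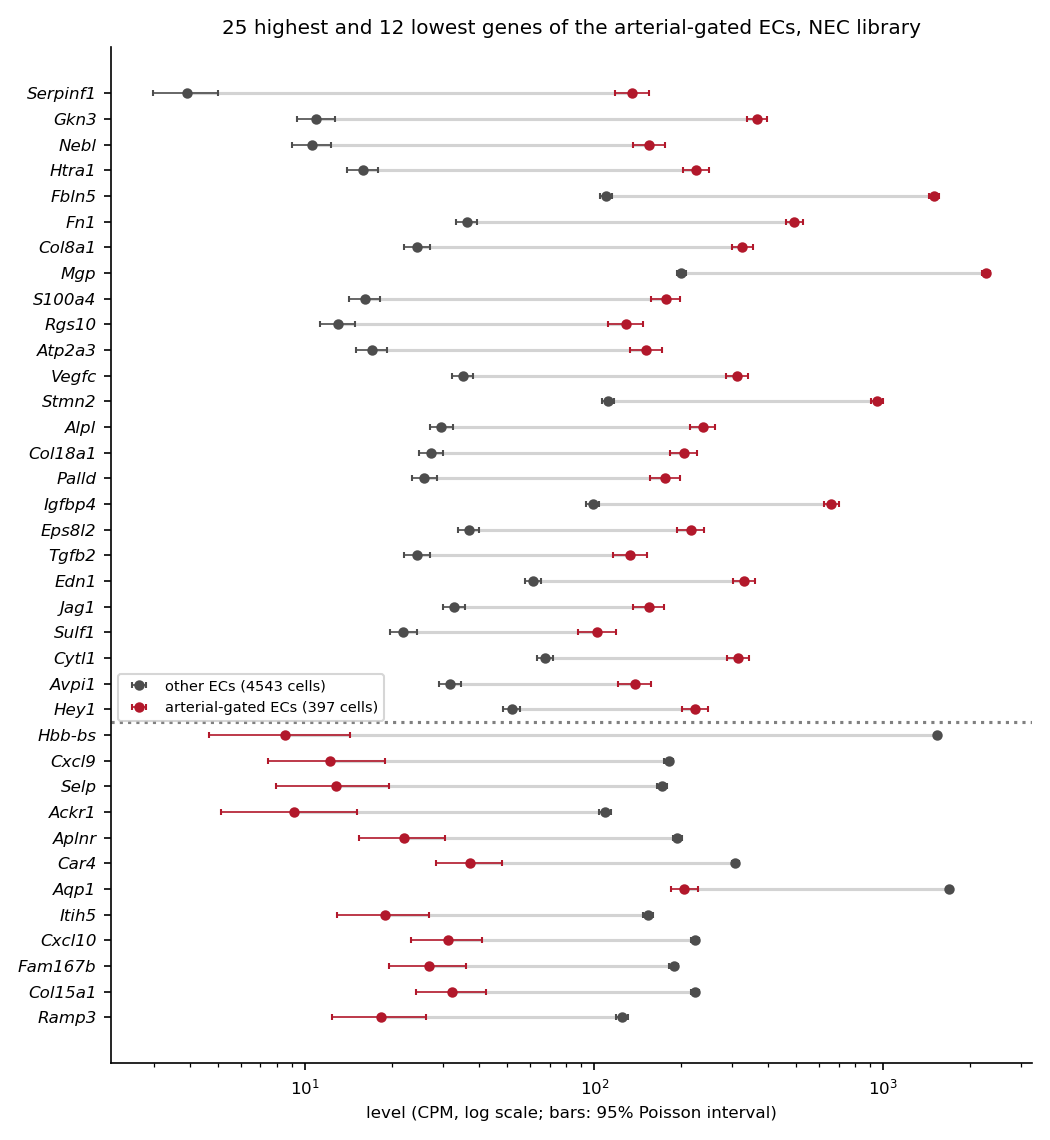
Level of the 25 highest and 12 lowest genes by ratio (y axis) in arterial-gated ECs (red) and other ECs (grey) of the NEC library (x axis, CPM on a log scale); points are summed levels and bars are 95% Poisson intervals. No interval of the pair overlaps for any gene, from Serpinf1 at 135 against 3.89 CPM to Ramp3 at 18.3 against 125 CPM.

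For 20 of the 25 genes RefSeq gave a promoter (GRCm38.p6), of which the 250 bases upstream of the start were searched on both strands for TGGGAA, the core bound by the Notch effector Rbpj, and AACAAT, a core bound by Sox factors. The first was present in 3 of 20 (Fbln5, Palld and S100a4) and in 19.9% of 6557 promoters of tested genes, and the second in 1 of 20 (5.00%; S100a4) and in 4.97%. A match is a description of letters, not a site or a cause, and the shares were close to those over all tested genes. The windows of Fbln5 (chr12:101819120-101819369, minus strand) and S100a4 (chr3:90603520-90603769, plus strand) are shown because they hold the matches, in capitals, and that of Gkn3 (chr6:87388936-87389185, minus strand) because it holds none although its ratio was among the largest. No annotated exon overlaps these windows, and each is written along the strand of its gene.
Fbln5: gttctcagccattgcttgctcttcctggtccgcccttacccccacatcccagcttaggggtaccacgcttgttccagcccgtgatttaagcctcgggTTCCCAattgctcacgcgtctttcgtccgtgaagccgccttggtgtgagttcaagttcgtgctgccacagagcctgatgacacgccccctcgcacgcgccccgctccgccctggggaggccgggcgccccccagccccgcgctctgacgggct
S100a4: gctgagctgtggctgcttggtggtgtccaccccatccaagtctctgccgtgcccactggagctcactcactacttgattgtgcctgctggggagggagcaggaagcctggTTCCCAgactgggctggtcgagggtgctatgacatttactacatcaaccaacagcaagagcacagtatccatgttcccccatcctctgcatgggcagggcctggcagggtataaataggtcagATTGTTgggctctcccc
Gkn3: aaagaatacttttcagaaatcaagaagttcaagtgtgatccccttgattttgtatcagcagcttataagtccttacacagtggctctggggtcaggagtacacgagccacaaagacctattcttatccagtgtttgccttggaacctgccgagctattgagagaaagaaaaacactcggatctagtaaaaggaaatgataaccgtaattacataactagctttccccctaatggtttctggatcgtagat

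In the Notch pathway ligands on one cell activate receptors on the next, whose cleaved domain turns on Hey and Hes genes through Rbpj. Of 20 tested genes, 4 were at least 2-fold higher and 0 at least 2-fold lower, against 3.46% and 5.44% over all genes. The median log2 ratio was 0.36, and the sum was at 2252 against 1350.0 CPM (log2 ratio 0.74, interval 0.69 to 0.79). The ligands Jag1 (154 against 32.7 CPM; log2 ratio 2.24, interval 2.01 to 2.46), Jag2 (289 against 79.6 CPM; log2 ratio 1.86, interval 1.70 to 2.01) and Dll4 (232 against 111 CPM; log2 ratio 1.06, interval 0.90 to 1.23) and the target Hey1 (224 against 51.8 CPM; log2 ratio 2.11, interval 1.93 to 2.29) were the 4 genes past 2-fold. The receptors were short of 2-fold, Notch4 at 143 against 73.4 CPM (log2 ratio 0.96, interval 0.75 to 1.17) and Notch1 at 302 against 202 CPM (log2 ratio 0.58, interval 0.44 to 0.72). The target Hes1 (202 against 208 CPM; log2 ratio -0.04, interval -0.21 to 0.12) had an interval that included 0, and the ligand Dll1 was at 52.4 against 37.8 CPM (log2 ratio 0.47, interval 0.13 to 0.80). Hey2 was sparse, with 17 UMIs in all members (10.4 CPM against 2.93 CPM). The fringe genes Mfng (-0.11) and Lfng (-0.75), which modify the receptors, had log2 ratios below 0, that of Mfng with an interval that included 0.

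Of 20 tested transcription factors linked to arterial fate or to flow, 7 were at least 2-fold higher and 2 at least 2-fold lower, against 3.46% and 5.44% over all genes. Beside Hey1 the 7 higher were Mecom (305 against 86.3 CPM), Gata6 (33.5 against 9.18 CPM), Sox17, a SoxF factor (675 against 251 CPM; log2 ratio 1.43, interval 1.33 to 1.52), Msx1 (87.7 against 39.5 CPM), Gata2 (154 against 70.1 CPM) and Prdm16 (84.1 against 39.3 CPM). Gata6 reached the limit of 10 CPM over all ECs only through the members, so its place among the 7 is in part set by that limit. The SoxF genes differed among themselves: Sox18 was at 446 against 288 CPM (log2 ratio 0.63, interval 0.51 to 0.74) and Sox7 at 78.0 against 108 CPM (log2 ratio -0.47, interval -0.74 to -0.21). Klf2 and Klf4, which respond to flow, were among the most abundant, Klf2 at 2157 against 1457 CPM and Klf4 at 1179 against 771 CPM, with log2 ratios of 0.57 and 0.61. Members differed here: in the 103 cells of the stress-gene sub-cluster described below, the whole list summed to 9231 CPM. It stood at 4989 to 6794 CPM in the other sub-clusters and at 5235 CPM in the other ECs. Klf4 was also high in those 103 cells, so its level over all members does not describe each part of them. On the lower side, Nr2f2, the factor that maintains venous identity, was at 14.6 against 69.5 CPM (log2 ratio -2.25, interval -2.90 to -1.67) and Mef2c at 262 against 724 CPM. Erg (-0.13) and Ets1 (-0.16), general endothelial factors, were nearly level.

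Matrix genes lay far out on both sides. Of 26 tested matrix genes, 10 were at least 2-fold higher and 8 at least 2-fold lower, against 3.46% and 5.44% over all genes, around a median log2 ratio of -0.10. On the higher side were the elastic fiber genes Fbln5, Fbln2 (988 against 238 CPM), Fbn1 (122 against 35.1 CPM), Eln, which encodes elastin (355 against 114 CPM; log2 ratio 1.64), and Ltbp4 (1205 against 469.6 CPM; log2 ratio 1.36, interval 1.29 to 1.43). Lox, which cross-links elastin and collagen, was under the 10 CPM limit over all ECs but was at 42.0 against 2.93 CPM. Basement membrane genes were found on both sides. Lower were Col15a1 (32.3 against 223 CPM), Hspg2, which encodes perlecan (166 against 447 CPM), Col4a2 (299.8 against 667 CPM), Nid1 (68.9 against 165 CPM), Lama4 (60.3 against 146 CPM) and Lamb1 (24.4 against 123 CPM). Higher were Col18a1 (204 against 27.3 CPM) and the laminin chain Lama5, at 133 against 61.1 CPM (log2 ratio 1.13, interval 0.91 to 1.34).

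Among junction genes, Cldn5, the claudin of endothelial tight junctions, was at 2219 against 688 CPM (log2 ratio 1.69, interval 1.63 to 1.74) and was found in 90.8%, 37.7% and 1.91% of thinned arterial-gated ECs, other ECs and Epcam cells. Of 10 tested genes it was the 1 at least 2-fold higher and 2 were at least 2-fold lower, against 3.46% and 5.44% over all genes. Counts this small are not read as a result about the list. The junction genes Esam (-0.10), Tjp1 (-0.02) and F11r (0.32) differed little. Gja1, a connexin outside the gate, was lower in the arterial-gated ECs, 130.4 against 264 CPM (log2 ratio -1.02, interval -1.22 to -0.82), as was Jam3 (40.2 against 194 CPM).

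Genes of vascular tone included large differences in both directions. Of 23 tested, 5 were at least 2-fold higher and 7 at least 2-fold lower, against 3.46% and 5.44% over all genes. Kcnn4, a calcium-activated potassium channel, was at 69.5 against 3.95 CPM (log2 ratio 4.14, interval 3.68 to 4.61), the calcium channel Trpv4 at 71.9 against 13.1 CPM (log2 ratio 2.45, interval 2.11 to 2.79), the calcium pump Atp2a3 at 151 against 17.0 CPM, Edn1 at 329.7 against 61.4 CPM and Ace, the angiotensin-converting enzyme, at 388 against 152 CPM (log2 ratio 1.35, interval 1.23 to 1.48). With 3.95 CPM in the other ECs, Kcnn4 reached the limit of 10 CPM over all ECs only through the members, so its place among the 5 is in part set by that limit. Apart from Kcnn4, the higher genes were of calcium handling (Trpv4 and Atp2a3) and of constrictor peptides (Edn1 and Ace). Nos3, which makes nitric oxide, was at 127 against 73.9 CPM (log2 ratio 0.79, interval 0.57 to 1.00). Lower were the adrenomedullin receptor genes Calcrl (34.7 against 175 CPM) and Ramp3 (18.3 against 125 CPM), the channel Piezo2 (11.6 against 74.0 CPM), Ptgs1 (25.6 against 136 CPM) and Thbd, thrombomodulin (170.0 against 345 CPM), whereas Ramp2 (-0.15) and Piezo1 (0.10) were close to level.

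The counts of the next 4 lists stand beside 3.46% higher and 5.44% lower over all genes, and a count of 1 gene is not read as a result about its list. Of 22 tested TGF-beta and BMP genes, 6 were at least 2-fold higher (Tgfb2, Smad6, Id2, Ltbp4, Gdf15 and Htra1) and 3 at least 2-fold lower (Tgfbr3, Bmp2 and Inhbb). Smad6, an inhibitor of BMP signals, was at 66.4 against 27.3 CPM (log2 ratio 1.28, interval 0.97 to 1.59), and the ligand Bmp2 at 2.44 against 24.0 CPM (log2 ratio -3.30, interval -5.18 to -1.93). Id1, a target of BMP signals, was at 1266 against 761 CPM (log2 ratio 0.73, interval 0.67 to 0.80), short of 2-fold. The receptors Eng (-0.15), Bmpr2 (-0.11) and Tgfbr2 (-0.03) were near level and Acvrl1 was at 335 against 221 CPM. Of 17 guidance genes, 3 were at least 2-fold higher, Efnb2, the arterial ephrin (268 against 114 CPM; log2 ratio 1.22, interval 1.07 to 1.38), Epha4 (134 against 62.2 CPM) and Ntn4 (log2 ratio 1.02, interval 0.55 to 1.46), and 1 at least 2-fold lower, Nrp2 (59.7 against 222 CPM). Ephb4, the venous partner of Efnb2, was lower (log2 ratio -0.45, interval -0.73 to -0.18). In the VEGF, Tie and apelin group of 10 tested genes, 1 was at least 2-fold higher, Vegfc, and 3 at least 2-fold lower. Of the receptors, Kdr was at 389 against 1223 CPM (log2 ratio -1.65, interval -1.77 to -1.54), Flt1 at 1363 against 2050.3 CPM and Aplnr at 21.9 against 193 CPM (log2 ratio -3.14, interval -3.66 to -2.67). Of 11 tested coagulation genes, 2 were at least 2-fold higher and 4 at least 2-fold lower. The sum of the whole list was level (log2 ratio 0.02, interval -0.04 to 0.08). The 2 higher were Plat, tissue plasminogen activator, at 166 against 38.8 CPM (log2 ratio 2.10, interval 1.88 to 2.30) and Entpd1 at 243 against 111 CPM, while Vwf was at 246 against 219 CPM (log2 ratio 0.17, interval 0.01 to 0.32).

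**Figure D3:**
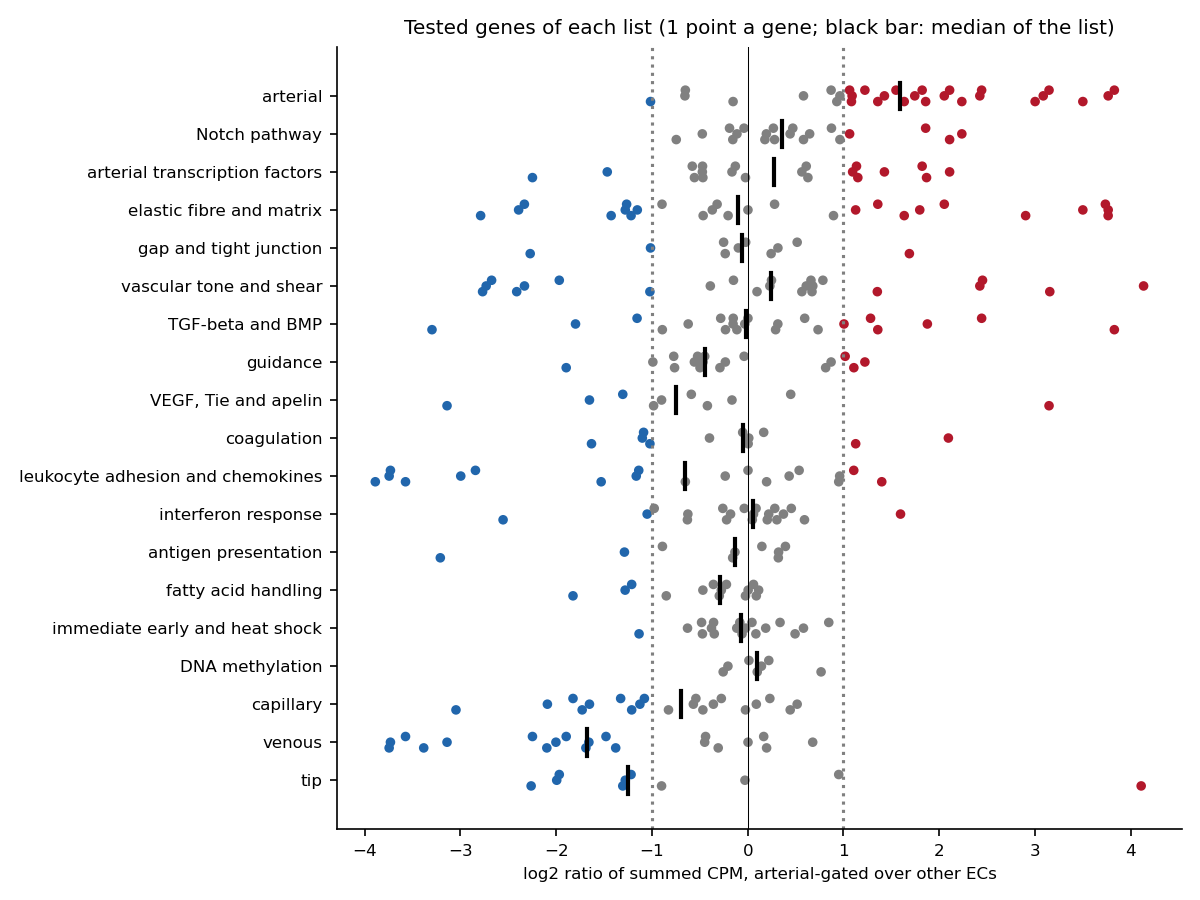
Log2 ratio of arterial-gated over other ECs (x axis) for each tested gene of 19 lists (y axis); each point is 1 gene, red or blue when past 2-fold (dotted lines), and the black bar is the median of the list. The arterial list has its median at 1.59 and the venous list at -1.67, while the matrix and vascular tone lists hold genes far out on both sides.

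The 12 lowest genes included some of the venous, capillary and chemokine lists. Selp, the leukocyte adhesion molecule P-selectin, was at 12.8 against 172 CPM (log2 ratio -3.75, interval -4.44 to -3.13), Ackr1, a chemokine-binding receptor of venules, at 9.14 against 109 CPM (log2 ratio -3.57, interval -4.41 to -2.85), and the capillary enzyme Car4 at 37.2 against 307 CPM (log2 ratio -3.05, interval -3.44 to -2.68). None of the 20 tested venous genes and none of the 20 tested capillary genes was at least 2-fold higher, and 13 and 9 were at least 2-fold lower. Over all genes, 3.46% were higher and 5.44% lower. Plvap, a component of fenestral diaphragms, was at 491 against 2092 CPM (log2 ratio -2.09, interval -2.19 to -1.99), the water channel Aqp1 at 205 against 1691 CPM (log2 ratio -3.05, interval -3.21 to -2.89) and Emcn at 402 against 1269.8 CPM. Fatty acid genes of capillaries were lower by varying amounts, Lpl at 79.8 against 283 CPM and Gpihbp1 at 552 against 1279 CPM, but the fatty acid carrier Fabp4 remained the most abundant gene of the capillary list, at 16572 against 21243 CPM (log2 ratio -0.36, interval -0.38 to -0.34). Of 14 tested fatty acid genes, 0 were at least 2-fold higher and 3 at least 2-fold lower, with a median log2 ratio of -0.29.

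The chemokines Cxcl9 and Cxcl10, which interferon induces and which attract T cells, were at 12.2 against 181 CPM (log2 ratio -3.89, interval -4.60 to -3.26) and 31.1 against 223 CPM (log2 ratio -2.84, interval -3.27 to -2.45). Of 19 tested adhesion and chemokine genes, 9 were at least 2-fold lower and 2 at least 2-fold higher, against 5.44% and 3.46% over all genes. The 2 higher were the membrane-bound chemokine Cx3cl1 (75.6 against 28.6 CPM) and Icam2 (732 against 339.5 CPM; log2 ratio 1.11, interval 1.02 to 1.20). Icam1 (log2 ratio 0.00, interval -0.14 to 0.14) and Vcam1 (log2 ratio 0.20, interval -0.05 to 0.44) had intervals that included 0. In contrast to the chemokines, the other interferon-response genes were mostly level: 1 of 20 tested was at least 2-fold higher, Ifi27l2a (243 against 80.2 CPM), and 2 at least 2-fold lower, Rsad2 (174 against 361 CPM) and Irf8 (6.70 against 39.4 CPM), counts close to those over all genes. Cxcl12, listed as arterial, was lower, 1223 against 1921 CPM (log2 ratio -0.65, interval -0.72 to -0.59). Hemoglobin Hbb-bs had the largest negative ratio (8.53 against 1530.3 CPM), from 4.31% of the other ECs. It is no endothelial gene, and its log2 ratio turned from -7.49 to 0.44 when 2 gate genes sufficed.

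Markers of other cell types were low in the members, although the mural sum was above that of the other ECs. Of 14 mural genes (pericytes and smooth muscle), 8 were under 10 CPM, and their sum was 503 CPM against 353 CPM in the other ECs (log2 ratio 0.51, interval 0.41 to 0.62), with 11.7% of it in 1 cell. At least 3 of Rgs5, Pdgfrb, Acta2, Tagln and Des were found in 9 members, 2.27% (1.04% to 4.26%), and in 43 of the other ECs, 0.947% (0.686% to 1.27%). The ratios of the arterial, venous and capillary lists without these cells are given among the alternative settings. The 10 immune genes summed to 7.92 CPM, the 10 fibroblast genes to 39.6 CPM, 11 epithelial genes to 169 against 162 CPM in the other ECs (log2 ratio 0.06, interval -0.12 to 0.24), and 6 Schwann cell genes to 3.05 CPM. The lymphatic genes Lyve1, Pdpn, Mmrn1, Reln and Thy1 had no UMI in the members and Prox1 had 2, where a count of 0 allows up to 3 UMIs of 1641048. The whole lymphatic list of 10 genes was at 331 against 444 CPM (log2 ratio -0.42, interval -0.55 to -0.30). Ccl21a made up 85.8% of it in the members, with 86.1% of the Ccl21a UMIs in 1 cell, and Flt4 had 69 UMIs. Salivary gland RNA, an RNA that does not belong to ECs, was at 1353 against 2400.1 CPM, with Bpifa2 in 82.1% of members and 82.6% of the other ECs. No doublet caller was used. Of the members, 27 (6.80%) were among the 5% deepest ECs.

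The closest comparisons were with 3 other groups of ECs, taken outside the arterial gate. ECs with UMIs of both Alpl and Tgfb2, also listed as arterial, numbered 132, and 69 of them passed the arterial gate, which is 52.3% of those cells and 17.4% of the members. The 63 that did not pass held the arterial list at 16110.2 CPM (log2 ratio of the members over them 0.34, interval 0.29 to 0.39), between the members and the other ECs, with Alpl and Tgfb2 themselves on that list. In these cells Fbln5 was at 769.7 CPM, Sox17 at 573 CPM, Gkn3 at 83.1 CPM and Mgp at 442 CPM, against 1497 CPM, 675 CPM, 366 CPM and 2266 CPM in the members. Sox17 was thus close to the members' level there, and Gkn3 and Mgp were well under it. Of the 25 highest genes, Nebl, Rgs10, Atp2a3, Eps8l2, Edn1, Jag1 and Hey1 had intervals of members over these cells that included 0. S100a4 was lower in the members (log2 ratio -0.55, interval -0.95 to -0.12). Alpl and Tgfb2, which chose these cells, were lower too, and the rest of the 25 had intervals above 0. The venous-gated ECs (at least 2 of Lbp, Ackr1 and Selp) shared only 2 of 264 cells with the members, and the 262 others held the arterial list at 6831 CPM and the venous list at 10892 CPM, a level that their own gate helped to set. Of 1863 capillary-gated ECs (at least 2 of Car8, Timp4 and Gpihbp1), 101 were members, 5.42% of those cells and 25.4% of the members. Hey1 was at 1.94 CPM in venous-gated and 50.9 CPM in capillary-gated ECs outside the gate, Fbln5 at 175 CPM and 71.7 CPM, and Igfbp4 at 363 CPM and 34.9 CPM. Hey1 thus separated members from venous more than from capillary cells, and Fbln5 and Igfbp4 the reverse.

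The members were not uniform. Clustering them on 2000 variable genes without the gate genes gave 5 sub-clusters of 103, 56, 123, 25 and 90 cells, numbered 0 to 4, which are described by their leading genes without a test, since these genes formed the clusters. Sub-cluster 4 (90 cells) held the genes of the highest ratios: Gkn3 at 1223 CPM against 179 CPM in the rest of the members, Mgp at 6755 CPM, Serpinf1 at 444 CPM, Htra1 at 721 CPM, Eln at 865 CPM and Cldn5 at 4141 CPM. It was led by the channel subunit Kcne3 (372 against 37.1 CPM) and by Cytl1 (1107 against 142 CPM), with Cp, Ctsh, F2rl1, Lgals3 and the contractile gene Tagln (352 against 52.7 CPM), 1 cell holding 23.3% of the Tagln UMIs. The sum of the mural list was also highest there, at 789 CPM against 284 to 581 CPM in the other sub-clusters, and its part in these values was not tested. Its median share of mitochondrial UMIs was 6.11%, against 3.55% to 4.76% in the other sub-clusters. Kdr (64.9 CPM), Gpihbp1 (61.5 CPM) and Gja1 (23.9 CPM) were at their lowest there among the 5.

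Sub-cluster 2 (123 cells) sat at the capillary end. It was led by Lpl (218 against 29.9 CPM), Gpihbp1 (1310 against 279 CPM), Fabp5 (848 against 273 CPM) and Timp4 (391 against 131 CPM), and its Fabp4 level was 25576 CPM. Its Fbln5 (1461 CPM) and Hey1 (269 CPM) were nonetheless at the members' level. Sub-cluster 1 (56 cells) was led by Tgfb2 (443 against 91.2 CPM), Prss23, Alox12 (314 against 85.7 CPM) and Kctd12b, and held Alpl at 443 CPM and Nebl at 314 CPM, while Cytl1 had no UMI and Gkn3 was at 15.5 CPM. Gkn3 and Tgfb2 were thus highest in different sub-clusters. With 10 principal components in place of 20, 30 of the 56 cells of sub-cluster 1 fell into a cluster of 112 that held 74 cells of sub-cluster 2, so that its separation depended on that setting.

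Sub-cluster 0 (103 cells) was led by stress and immediate early genes: Atf3 (2293 against 171 CPM), Nr4a2 (383 against 37.5 CPM), Egr3 and Hbegf. Its immediate early and heat shock list summed to 33172 CPM, against 22283 CPM in sub-cluster 3 and 4598, 4101 and 2795 CPM in sub-clusters 1, 2 and 4, and Klf4 was at 2366 CPM. Sub-cluster 3, of 25 cells with 3 or 4 gate genes each and the deepest median (6285 UMIs), was led by Glycam1, a sialomucin, but 2 of its cells held 98.4% of the Glycam1 UMIs of all members (8271 and 3049, with at most 6 in any other). Its other leading genes included Fam167b (213 against 1.39 CPM), Chst2, Lrg1 (1014 against 26.3 CPM) and Itm2a. For Chst2 and Lrg1, 1 cell held 45.2% and 43% of the UMIs in the sub-cluster. The venous list of sub-cluster 3 was at 3660 CPM against 1413 to 1688 CPM in the others, and its arterial list at 13042 CPM against 17832 to 27049 CPM. Plvap (1972 CPM) and Kdr (1141 CPM) were high and Stmn2 (177 CPM) low in these 25 cells. They also held 460 of the 467 Ccl21a UMIs of the members, and their lymphatic list was at 2367 CPM. Without them the venous list stood at a log2 ratio of -1.39 in place of -1.18 and the arterial list at 1.35 in place of 1.28.

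**Figure D4:**
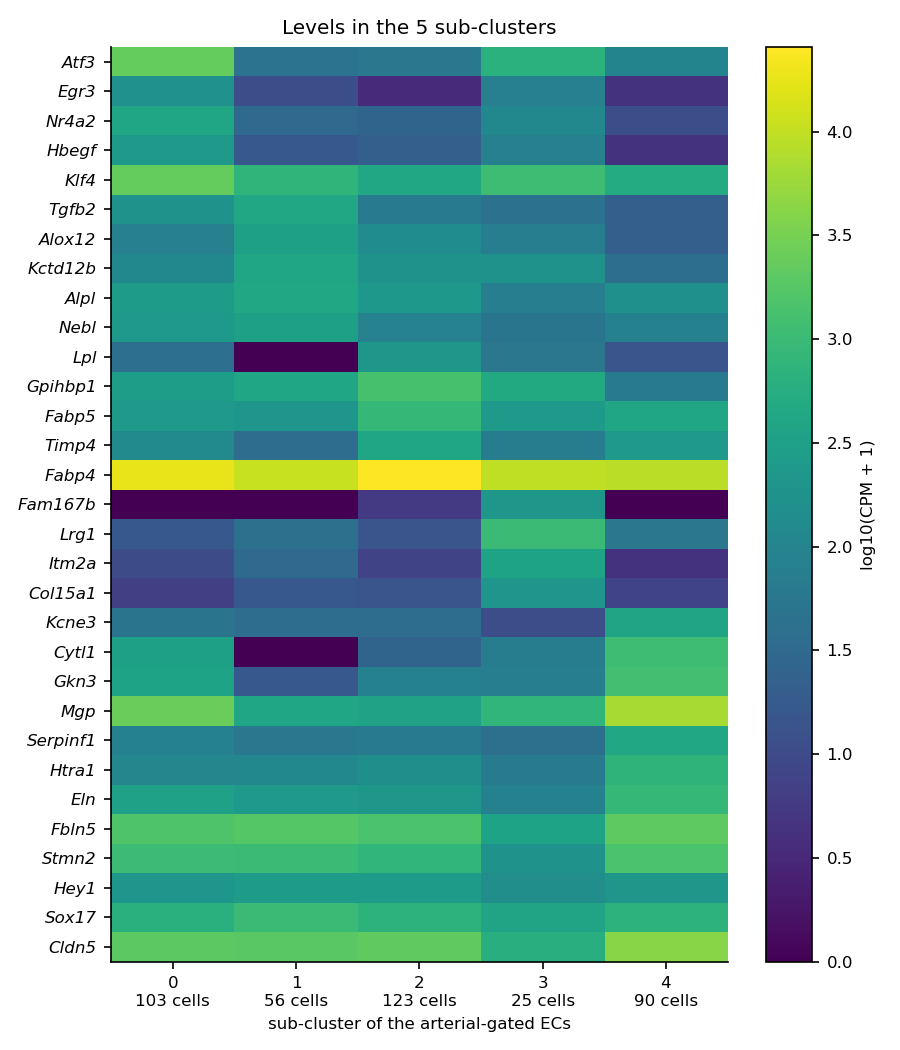
Level of 31 genes (rows, log10 of CPM + 1 by color) in the 5 sub-clusters of the arterial-gated ECs (columns, with their numbers of cells). Fbln5 and Stmn2 are high in every sub-cluster except number 3, while Gkn3, Cytl1 and Kcne3 are highest in number 4, Lpl and Gpihbp1 in number 2, and Fam167b and Itm2a in number 3.

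The same gate was applied to the TEC library, where 19 of 312 ECs passed, 6.09% (3.71% to 9.35%). The TECs were far deeper, with a median of 18100 UMIs in the 19 cells and 19502 in the others, and after thinning to 1900 UMIs 2 of 289 passed, 0.692% (0.0839% to 2.48%), against 5.61% of NECs. At equal depth the interval of the TEC share therefore lay under that of the NECs, for counting error alone and 1 library per condition. At the depth of the TECs, 1 UMI of Cdh5 or Pecam1 is a weaker requirement for an EC, and its part in the TEC share was not tested. Gja4 was detected in all 19 cells and Sema3g in 18, while Bmx was detected in 5. A single barcode held 31.8% of the UMIs of the 19 cells, and the lists and some genes are also given without it.

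In the 19 cells the arterial list was at 8512 CPM against 3311 CPM in the other TECs (log2 ratio 1.36, interval 1.32 to 1.41), and at 11808 CPM without the deepest cell (1.83). The venous and capillary lists, lower in the gated NECs, were higher in the gated TECs, the venous list by a log2 ratio of 0.28 (interval 0.18 to 0.39; 0.68 without the deepest cell) and the capillary list by 1.00 (interval 0.96 to 1.05; 1.49 without it). So were the guidance (0.95), TGF-beta and BMP (1.08), VEGF, Tie and apelin (0.81) and fatty acid (1.03) lists. A higher sum was thus not particular to the arterial list. The tip and mitotic lists were nearly level (-0.04 each). The fibroblast (258 against 475 CPM) and epithelial (81.3 against 164 CPM) lists were lower. The part of non-endothelial barcodes among the other TECs in these ratios was not tested. The lymphatic list was at 1205 against 80.5 CPM, 581 of its UMIs in the 19 cells being from Nts, and the part of such RNA in the other values was not tested. Of 27 tested arterial genes with at least 10 UMIs in the TECs, 19 were at least 2-fold higher in NECs and 20 in TECs, 15 of them in both. Over all tested genes 3.46% were higher in the gated NECs. The share over all genes was not computed for the TECs, so the TEC counts are not read as a result about the arterial list. The sign was not shared by 6 of the 27, counting Bmp4, which had no UMI in the 19 cells. The TEC intervals of 3 included 0. Vegfc was at 232 CPM against 21.6 CPM, Sox17 at 202 CPM against 41.6 CPM, Efnb2 at 176 CPM against 28.2 CPM, Hey1 at 95.2 CPM against 10.9 CPM and Fbln5 at 131 CPM against 16.6 CPM. These 5 genes were higher in the gated cells of both libraries. Others of the 25 highest NEC genes were lower in the gated TECs: Serpinf1 (59.5 against 140 CPM), Fn1 (47.6 against 143 CPM) and S100a4 (169 against 416 CPM). In the 19 cells, 1 cell held 83.3% of the 30 Serpinf1 UMIs and 1 cell held 82.4% of the 85 S100a4 UMIs. The levels of these 2 genes are therefore mostly those of 1 cell. Eln and Mgp were too sparse in the TECs to compare, with no UMI and 1 UMI in the 19 cells and 5 and 4 UMIs in the others. Htra1 was at 31.7 CPM against 37.8 CPM. Cxcl12 and Gja1, lower in the gated NECs, were at 488 CPM against 87.9 CPM and at 337 CPM against 209 CPM in the TECs. Without the deepest cell Fbln5 was at 192 CPM, the log2 ratio of Gja1 was 1.13 in place of 0.69, and that of Htra1 was -0.70 in place of -0.25, the Htra1 intervals including 0 in each case. Of the 28 arterial genes with at least 10 UMIs in the TECs, whatever their level in the NECs, 20 were at least 2-fold higher with that cell and 22 without it. These counts, too, have no share over all genes beside them. The difference between the libraries was not tested.

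**Figure D5:**
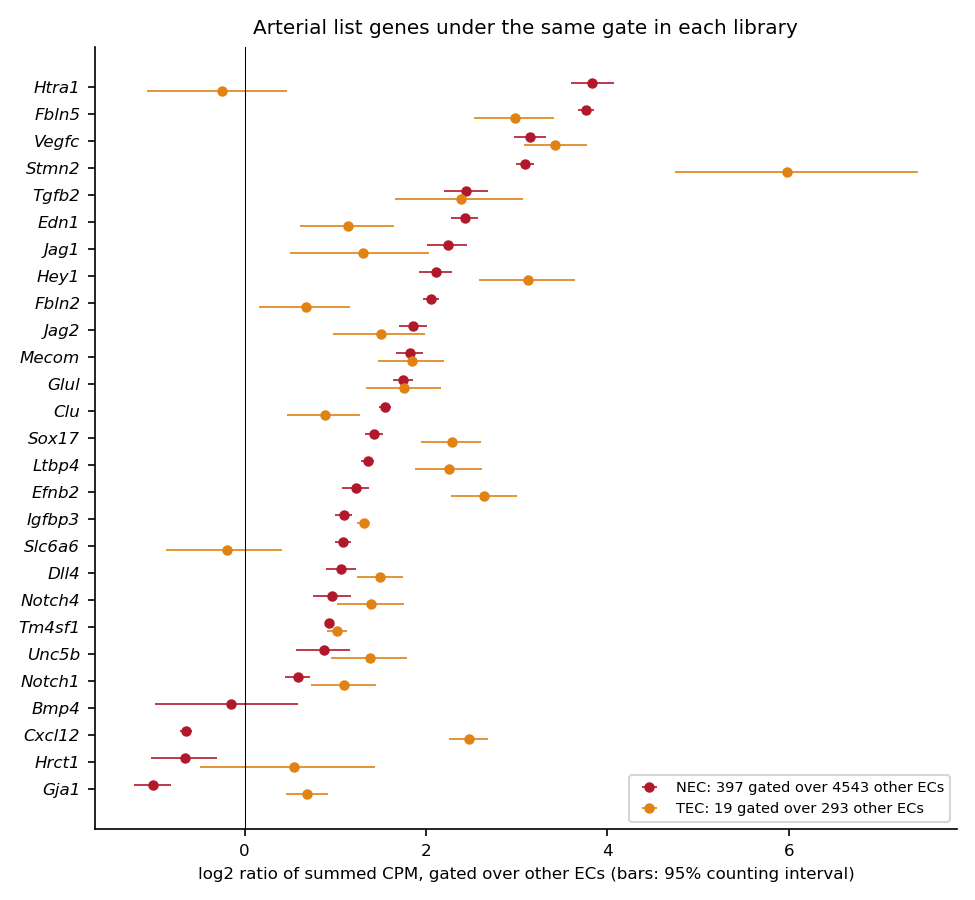
Log2 ratio of gated over other ECs (x axis) for 27 arterial genes outside the gate (y axis), in the NEC library (red, 397 over 4543 cells) and the TEC library (orange, 19 over 293 cells); bars are 95% counting intervals, and Bmp4 has no TEC point because the 19 cells held no UMI of it. Vegfc, Tgfb2 and Mecom have similar ratios in both, Htra1 is at 3.83 in NECs and -0.25 in TECs, and Cxcl12 is at -0.65 in NECs and 2.47 in TECs.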

How the data were processed

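CD45-/CD31+ cells of pooled normal mammary glands (NECs) and pooled E0771 tumors (TECs) were profiled as 1 10x Genomics library each. The authors deposited raw UMI counts per gene and barcode, made with Cell Ranger on mm10 per the submitters' processing notes, which also name Seurat. The version of Cell Ranger is not given in the sources used here. The deposited counts were filtered (at least 200 genes, under 10% mitochondrial UMIs), gated on detected genes as described above, and summed per group into CPM. Genes at 10 CPM or more over all NEC ECs were compared, the gate genes excepted, and 2-fold was the limit for calling a gene higher or lower. Intervals at 95% were Clopper-Pearson for shares, Poisson for sums and exact conditional binomial for ratios, and cover counting error only. With 1 library per condition there was no test and no separate pairing of samples. No doublet caller was run. Free RNA was not subtracted.

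Named genes were the members of the fixed lists, the 25 highest and 12 lowest genes by ratio, and up to 8 leading genes per sub-cluster. Ranked genes had at least 100 CPM in the higher group and at least 10 UMIs in each group. In the higher group, no cell held over 20% of their UMIs. Leading genes were detected in at least 25% of the cells of their sub-cluster. Sub-clusters came from Leiden clustering at resolution 0.6 on 2000 variable genes, 20 principal components and 15 neighbors. Members and gene lists were chosen with earlier results of these data known, and the lists are no independent evidence. The scripts were tested on simulated counts. Gene positions are from GENCODE M21 (GRCm38) and promoters from RefSeq (GRCm38.p6). Python 3.11.15, numpy 2.4.6, scipy 1.17.1, pandas 2.3.3, scanpy 1.11.5 and matplotlib 3.10.9 were used. Alternatives covered the gate, depth, cell filters, gene filter, summing and clustering.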

Additional observations from a re-analysis of the deposited data

How the results depend on the processing

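No paired analysis was possible because there was 1 library per condition. The share of arterial-gated ECs, 8.04%, became 14.2% with 2 gate genes, 4.43% with 4, 5.61% after thinning and 6.63% under 5% mitochondrial UMIs. The TEC share, 6.09%, became 11.2% with 2 gate genes and 0.692% after thinning. The 286 higher genes became 95 at a filter of 50 CPM, and the 449 lower genes became 158 at 50 CPM, 292 with 2 gate genes and 803 after thinning. The log2 ratios of the arterial, venous and capillary lists (1.28, -1.18 and -0.49) were 1.18, -1.07 and -0.36 with 2 gate genes, 1.34, -1.25 and -0.55 after thinning, 1.24, -1.07 and -0.41 under 5% mitochondrial UMIs, 1.31, -0.97 and -0.29 with no cell removed for Ptprc, Myh11, Epcam or Cspg4, 1.33, -1.25 and -0.53 without the 5% deepest ECs, and 1.40, -1.01 and -0.72 without the most abundant gene of each list. The arterial list was at 1.24 with 4 gate genes, and the arterial and capillary lists were at 1.35 and -0.63 as a mean over cells. These lists kept their direction in every alternative run.

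Alternatives chosen after seeing the data gave 1.35, -1.39 and -0.45 without the 25 cells of the sub-cluster led by Glycam1, and 1.49, -1.27 and -0.51 against ECs with no gate gene. Without cells holding 3 or more mural genes the 3 lists were at 1.29, -1.19 and -0.51. In that setting all 37 ranked genes kept their direction and stayed past 2-fold. In the TECs the arterial list, 1.36, was at 1.83 without the deepest gated cell. The 5 sub-clusters became 2 at resolution 0.3 and 8 at resolution 1.0, and with 10 principal components stayed 5 in number with other borders. Of the 37 ranked genes, Hbb-bs turned from -7.49 to 0.44 with 2 gate genes, and the other 36 kept their direction and stayed past 2-fold there. The cause of these shifts was not tested. The 25 and 19 cells of the smallest groups limit what can be seen in them.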

Other observations

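Some gene groups outside the vascular programs are given as values, beside shares of 3.46% and 5.44% of all tested genes at least 2-fold higher and lower. Of 7 tested genes of DNA methylation, 0 were past 2-fold in either direction: Dnmt1, the maintenance methyltransferase, was at 31.7 against 28.7 CPM (log2 ratio 0.14, interval -0.30 to 0.56) and Dnmt3a at 46.3 against 27.2 CPM (log2 ratio 0.77, interval 0.39 to 1.12). Of 18 tested immediate early and heat shock genes, 1 was at least 2-fold lower, Ier3 (868 against 1907 CPM), and 0 were at least 2-fold higher, while the intervals of 6 lay above 0 and those of 9 below 0. Of 9 tested antigen presentation genes, H2-Aa and H2-Ab1 were at least 2-fold lower, with 2 and 9 UMIs in all members, and H2-D1 was at 3473 against 2783 CPM (log2 ratio 0.32, interval 0.28 to 0.36).

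Proliferation genes were carried by very few members: Top2a had 23 UMIs, 78.3% of them in 1 cell, and Mki67 17, with 88.2% in 1 cell. Of genes listed for sprouting tip cells, 6 of 10 tested were at least 2-fold lower, among them Esm1 (79.2 against 316 CPM) and Angpt2 (7.92 against 19.6 CPM), and 1 was higher, Kcne3 (96.9 against 5.61 CPM; log2 ratio 4.11, interval 3.73 to 4.50). Kcne3 reached the limit of 10 CPM over all ECs only through the members. In the TEC library Kcne3 was at 23.8 CPM in the 19 gated cells and 68.4 CPM in the others. Gdf15, a stress-induced ligand, was at 351 CPM in the gated TECs against 30.9 CPM, and at 44.5 against 12.1 CPM in the NECs.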
